A study of Homo sapiens with 6 samples.

Results

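The L1 family and the contactins are neural adhesion molecules that cells carry on their surface, and the 10 genes that encode them were followed here in D283 cells, a long-established line from a human medulloblastoma. The genes were taken by name from the 50883 gene symbols of the count table: the 4 genes of the L1 family (L1CAM, CHL1, NRCAM and NFASC) and the 6 contactins (CNTN1, CNTN2, CNTN3, CNTN4, CNTN5 and CNTN6). All 10 were present in the table. Total RNA was sequenced from 3 OTX2 knockout cultures, which received a lentivirus with a guide RNA directed at OTX2, and from 3 control cultures, which received a lentivirus with a non-targeting guide. Both viruses expressed GFP, both groups consisted of 3 separate infections of the same line, and cells of both groups were collected after 7 days. OTX2 is a homeodomain transcription factor known for its high expression in many medulloblastomas. Neither the source of the nuclease nor the share of edited cells is stated in the sources used here, and 1 cell line was studied, so the p-values measure the spread between infections of that line.

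L1 family proteins cross the membrane once, bind partners outside the cell through immunoglobulin and fibronectin repeats, and hold the ankyrin and spectrin skeleton inside it. Contactins are built from the same kinds of repeats, but a lipid anchor ties them to the outer face of the membrane, so they reach the cell interior through partners such as the contactin-associated proteins and L1 family members. In the developing cerebellum of rodents, these molecules are known for roles in the outgrowth and bundling of granule cell axons, and in mature nerve they help to build the node of Ranvier and the axon initial segment.

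The libraries held 60561438 to 62166870 counts in OTX2 knockout cultures and 54540645 to 61662466 counts in control cultures. Values are given as CPM, counts scaled to a common library size with the trimmed mean of M values, so that 3 counts in a library amounted to 0.0471 to 0.0563 CPM. Control library 1 stood apart from the other control libraries, with 0.764% of its counts in mitochondrial genes, against 0.440 to 0.449% in the other control libraries and 0.531 to 0.601% in OTX2 knockout libraries. OTX2 itself averaged 825 ± 61.1 CPM in OTX2 knockout cultures and 964 ± 48.4 CPM in control cultures (SD, n = 3 each), which by edgeR's quasi-likelihood test was a log2 fold change fitted at -0.22 (SE 0.0580, adjusted p = 0.00646). Gene counts do not show edited alleles, so this value does not measure how many copies were disrupted. Of 18420 genes tested, 3908 were higher and 3404 were lower in OTX2 knockout cultures, and with scaling by library totals alone these counts were 5210 and 2034.

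Of 10 genes, 6 changed between the groups and they did not move in one direction. L1CAM, NRCAM, CNTN2 and CNTN5 were higher in OTX2 knockout cultures, NFASC and CNTN1 were lower, CNTN3 and CNTN4 did not pass the test, and CHL1 and CNTN6 had too few counts to be tested. The background is large in this comparison: 39.7% of all tested genes passed the same threshold, 21.2% in the higher and 18.5% in the lower direction, and 49.2% had groups whose CPM values were fully separate (26.2% higher and 23.0% lower), as was the case for 6 of the 10 genes here. CNTN2 and CNTN5 passed the low-count filter through the OTX2 knockout libraries alone, since 1 and 0 of their 3 control libraries reached its limit of 0.164 CPM, so counts over the tested genes of the family are not read as support for a direction. In bulk samples, more cells that carry an RNA and more of it per cell cannot be told apart, nor can fewer cells and less RNA per cell. A fitted rise of over 2-fold at an adjusted p under 0.05 was seen in 6.04% of tested genes. L1CAM and NRCAM showed such a rise. CNTN2 and CNTN5 did as well, but because of the filter they are not read against this share. The fitted rise of NRCAM was just over 2-fold (log2 fold change 1.03). It was under 2-fold without OTX2 knockout replicate 2 (0.97) or without control replicate 2 (0.99).

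**Figure D1:**
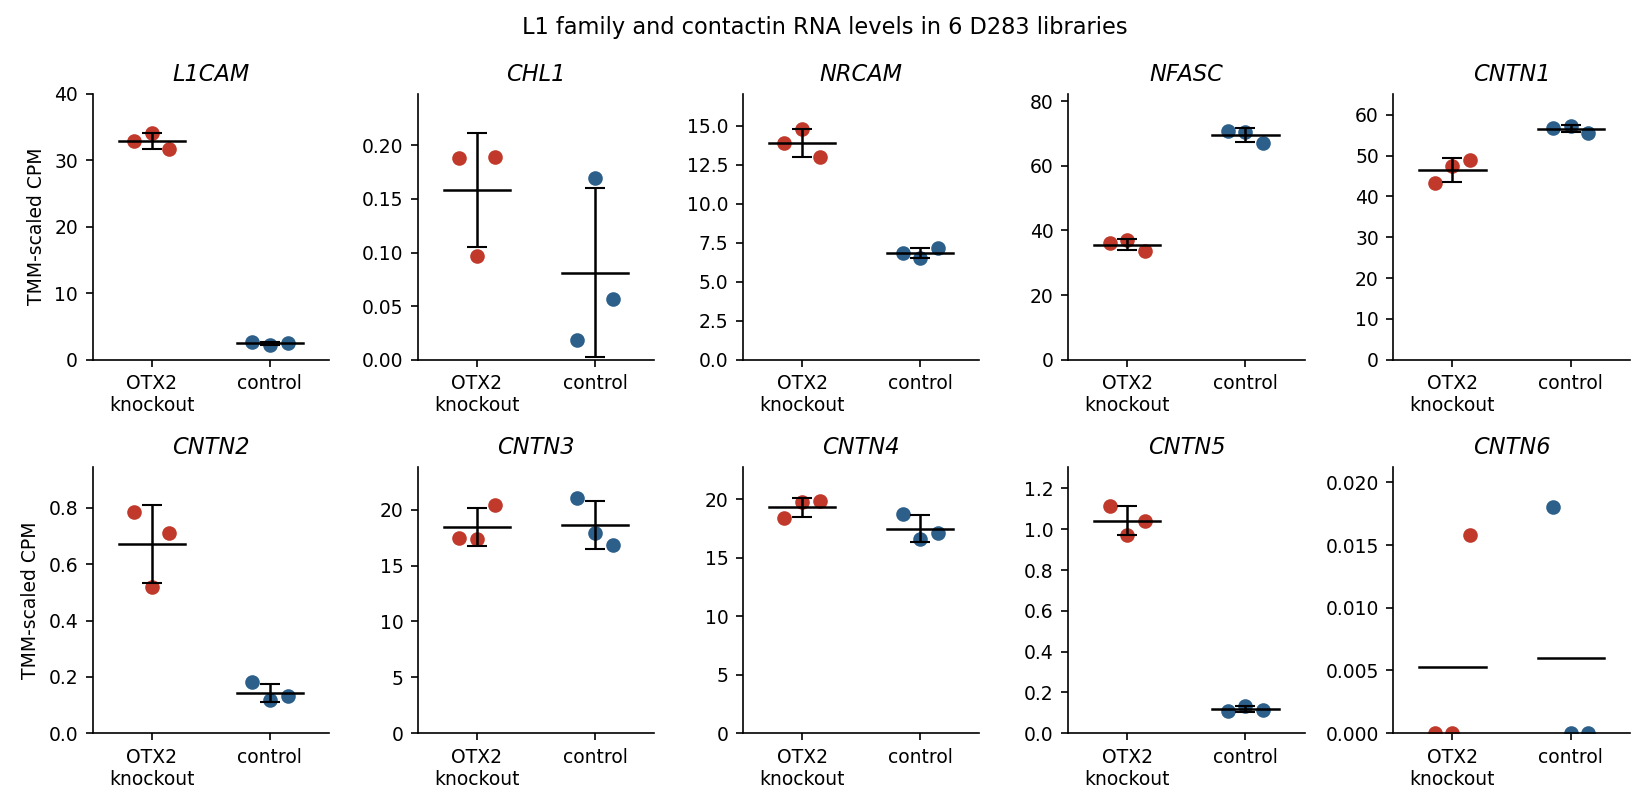
CPM of each of the 10 genes in the 3 OTX2 knockout and the 3 control libraries, with 1 point per library, the mean as a line and SD bars (none for CNTN6); each panel has its own linear axis from 0. L1CAM shows the widest gap (31.8 to 34.2 CPM in OTX2 knockout libraries, 2.27 to 2.71 CPM in control libraries), NFASC lies lower in OTX2 knockout libraries, and CNTN3 and CNTN4 overlap.

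**Figure D2:**
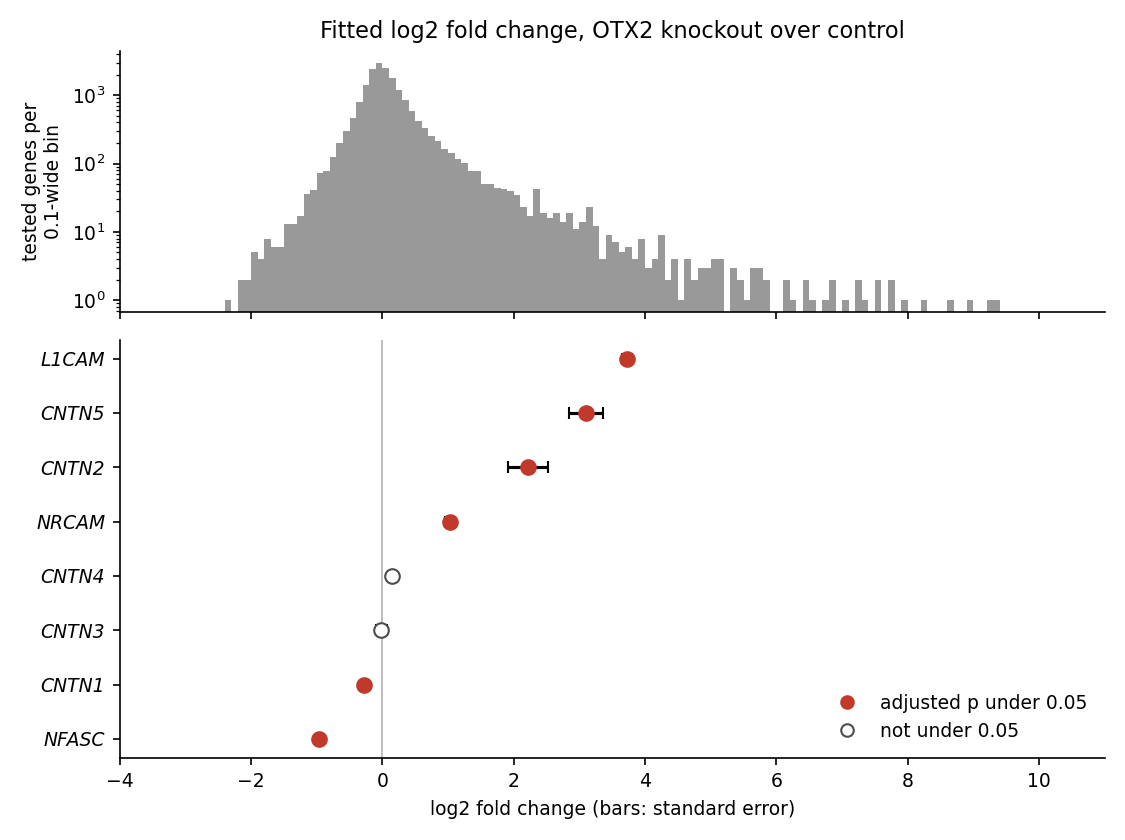
Fitted log2 fold change of OTX2 knockout over control for the 8 tested genes with SE bars (lower panel), below the distribution over 18420 tested genes (upper panel, log axis of gene counts). The genes run over a range of -0.96 for NFASC to 3.72 for L1CAM, while the median of all tested genes is 0.01.

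Sequences just upstream of RefSeq starts are printed for the genes that changed by the largest factors. This lets genes moving in opposite directions be read side by side. The sequences come from the RefSeq promoter table for GRCh38.p14 and run 5′ to 3′ on the strand of the gene. They show the 250 bases before the outermost start in that table. For L1CAM this start, at 153876014, lies inside the GENCODE span of the gene, whose 5′ end is at 153886174. L1CAM is limited to short stretches around its E-box matches, because 176 of the 250 bases of this window lie in annotated L1CAM exons, against at most 17 bases in the windows printed whole. A further GGGCGG, 35 bases before the L1CAM start, lies outside the printed stretches. Capitals mark matches, on either strand, to TAATCC, the core bound by OTX2-type homeodomains, to the E-boxes CAGATG and CAGCTG, to the GC box GGGCGG or to the TATA element TATAAA.
L1CAM upstream stretch (chrX:153876193-153876222, minus strand): gtgctgggaaggCAGCTGgcaggaaaggtg
L1CAM middle stretch (chrX:153876051-153876080, minus strand): ggagaagccggcCAGCTGgGGGCGGggctg
L1CAM stretch next to the start (chrX:153876015-153876034, minus strand): cccgggcttaccCAGATGtt
NRCAM (chr7:108456437-108456686, minus strand): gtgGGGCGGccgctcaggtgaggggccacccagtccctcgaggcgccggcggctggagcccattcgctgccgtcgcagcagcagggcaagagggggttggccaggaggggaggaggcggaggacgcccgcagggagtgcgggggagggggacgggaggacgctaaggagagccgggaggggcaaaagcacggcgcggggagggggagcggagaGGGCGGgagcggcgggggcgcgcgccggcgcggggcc
NFASC (chr1:204828402-204828651, plus strand): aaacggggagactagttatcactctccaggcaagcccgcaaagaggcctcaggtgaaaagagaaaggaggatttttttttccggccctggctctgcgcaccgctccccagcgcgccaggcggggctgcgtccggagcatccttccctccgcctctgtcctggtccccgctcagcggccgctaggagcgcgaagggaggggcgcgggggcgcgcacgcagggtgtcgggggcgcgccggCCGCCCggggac
CNTN2 (chr1:205042699-205042948, plus strand): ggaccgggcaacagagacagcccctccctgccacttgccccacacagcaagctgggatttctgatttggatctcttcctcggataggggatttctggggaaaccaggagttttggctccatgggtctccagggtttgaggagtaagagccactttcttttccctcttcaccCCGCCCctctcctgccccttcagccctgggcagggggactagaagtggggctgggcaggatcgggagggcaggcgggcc
CNTN5 (chr11:99020699-99020948, plus strand): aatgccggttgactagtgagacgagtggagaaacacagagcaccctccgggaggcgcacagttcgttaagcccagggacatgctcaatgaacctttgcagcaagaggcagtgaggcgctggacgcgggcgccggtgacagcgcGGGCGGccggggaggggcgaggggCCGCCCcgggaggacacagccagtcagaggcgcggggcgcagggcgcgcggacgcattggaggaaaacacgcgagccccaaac
No capitals from different motifs overlapped in these stretches.

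All 10 genes matched the promoter table, with 19 windows in all where alternative starts are included. Most of the starts lay inside the GENCODE span of their gene, among them alternative starts of NRCAM, CNTN4 and CHL1. For L1CAM and CNTN1 the outermost start lay far inside as well. The outermost CNTN1 start was at 40828184, and the 5′ end of that gene is at 40692442. The CNTN3 start lay 93519 bases from the nearest GENCODE start of that gene. TAATCC was found in 0 of the 19 windows, and 5.62% of 35116 windows of all genes held it. The L1CAM window before its outermost RefSeq start held CAGCTG at 2 places, whose first bases lay 196 and 54 bases before the start. It also held CAGATG at 8 bases before the start. CAGATG was found in 4 of the 19 windows, those of L1CAM, NRCAM and CNTN4, and in 12.2% of all windows. CAGCTG was found in 4 of the 19 windows as well, those of L1CAM, CNTN1 and CNTN6, and in 13.99% of all windows. The pair of L1CAM windows overlap and share sites of these motifs and of GGGCGG, so the windows are not independent. GGGCGG was found in 8 of the 19 windows (42.1%), a share close to the 42.6% of all windows. These were windows of L1CAM, NRCAM, CNTN2 and CNTN5, which were higher, and of NFASC, which was lower. They also included windows of CNTN3 and CNTN4, which did not pass the test. TATAAA was found in 1 of the 19 windows, of CNTN4, and in 10.7% of all windows. A match describes letters in the window and does not show that a factor binds there.

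L1CAM, the founding member of its family, which promotes axon growth and is known from tumours for its role in cell motility, showed the largest rise of the 10 genes. It is located on GRCh38 chrX:153861514-153886174, on the minus strand. L1CAM had 32.9, 34.2 and 31.8 CPM in OTX2 knockout libraries, against 2.71, 2.27 and 2.53 CPM in control libraries. The groups lay far apart, with the lowest OTX2 knockout library more than 10 times above the highest control library. Mean CPM was 33.0 ± 1.2 in OTX2 knockout cultures and 2.50 ± 0.221 in control cultures (SD, n = 3 each), a 13.2-fold rise (log2 fold change 3.72, SE 0.0753, adjusted p = 2.82e-14, edgeR). These values rest on 2012 to 2114 counts in OTX2 knockout libraries and on 134 to 150 counts in control libraries. Among all tested genes, 96 (0.521%) had a higher log2 fold change. Exons of L1CAM share 439 bases with U52112.1 on the same strand and 359 bases with LCA10 on the opposite strand. Neither symbol is in the count table, and reads in those bases cannot be assigned with certainty. The strand setting of the counting, which could separate LCA10 but not U52112.1, is not stated in the sources used here.

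NRCAM, an L1 family member that gathers sodium channels at nodes of Ranvier and guides axons, also rose. It is located on chr7:108147623-108456717, on the minus strand. NRCAM had 13.9, 14.8 and 13.0 CPM in OTX2 knockout libraries, against 6.81, 6.49 and 7.15 CPM in control libraries. No library of one group reached the values of the other. Mean CPM was 13.9 ± 0.915 in OTX2 knockout cultures and 6.81 ± 0.330 in control cultures (SD, n = 3 each), a 2.04-fold rise with a log2 fold change fitted at 1.03 (SE 0.0747, adjusted p = 4.49e-08, edgeR).

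NFASC encodes neurofascin, whose isoforms anchor the axon initial segment and, on the glial side, the junctions beside the node. It was the L1 family gene with the highest CPM in both groups, and it fell. The gene lies on chr1:204828651-205022822, on the plus strand. NFASC had 36.1, 37.1 and 33.6 CPM in OTX2 knockout libraries, against 70.9, 70.6 and 67.0 CPM in control libraries. All OTX2 knockout libraries lay below all control libraries. The mean was 35.6 ± 1.80 CPM in OTX2 knockout cultures and 69.5 ± 2.15 CPM in control cultures (SD, n = 3 each), a level 1.95 times higher in control cultures (log2 fold change -0.96, SE 0.0511, adjusted p = 1.41e-09, edgeR). Of all tested genes, 182 had a lower log2 fold change. The fall was just under 2-fold, and 0.782% of tested genes fell by more than 2-fold at an adjusted p under 0.05. Gene counts pool the 25 annotated NFASC transcripts, so isoforms that differ between neurons and glia could not be separated.

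The number of counts of L1CAM per count of NFASC does not depend on how libraries are scaled, and this pair was chosen after the values had been seen. The ratio was 0.912, 0.921 and 0.945 in OTX2 knockout libraries and 0.0382, 0.0322 and 0.0378 in control libraries. It was close to 1 in all OTX2 knockout libraries, whereas L1CAM counts were a small fraction of NFASC counts in all control libraries. NRCAM counts per NFASC count averaged 0.390 ± 0.00819 in OTX2 knockout libraries and 0.0982 ± 0.00760 in control libraries (SD, n = 3 each).

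CHL1, the close homologue of L1CAM, was near the limit of detection. It is located on chr3:196596-409417, on the plus strand. CHL1 had 12, 6 and 12 counts in OTX2 knockout libraries, against 1, 10 and 3 counts in control libraries. The groups overlapped, since control library 2 alone held 10 of the 14 control counts and exceeded OTX2 knockout library 2. Mean CPM was 0.158 ± 0.0531 in OTX2 knockout cultures and 0.0812 ± 0.0787 in control cultures (SD, n = 3 each), and the two-sided exact permutation p was 0.2, where 0.1 is the smallest this design allows. Fitted without the low-count filter, CHL1 had a log2 fold change of 0.91 (adjusted p = 0.251, edgeR). Without control replicate 2 it entered the test with a log2 fold change of 2.04 (adjusted p = 0.0318, edgeR), while the refits without other replicates in which it was tested gave adjusted p-values of 0.157 to 0.552. CHL1-AS2, which overlaps CHL1 on the opposite strand, had 5 counts over all libraries, so the few CHL1 counts are uncertain.

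CNTN1, the contactin of nodes and of cerebellar granule cell axons, had the highest CPM among the contactins in both groups and fell slightly. It is located on chr12:40692442-41072418, on the plus strand. CNTN1 had 43.2, 47.3 and 48.9 CPM in OTX2 knockout libraries, against 56.9, 57.4 and 55.6 CPM in control libraries. The highest OTX2 knockout library was below the lowest control library. Means were 46.5 ± 2.95 CPM in OTX2 knockout cultures and 56.6 ± 0.913 CPM in control cultures (SD, n = 3 each), 1.22 times higher in control cultures (log2 fold change -0.28, SE 0.0523, adjusted p = 0.000503, edgeR). This change did not pass a test against a minimum change of 1.5-fold.

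CNTN2, known as TAG-1 in rodents and carried there by young granule neurons before they migrate, was low in both groups and rose. The gene is located on chr1:205042937-205078284, on the plus strand. CNTN2 had 50, 32 and 45 counts in OTX2 knockout libraries, against 10, 7 and 7 counts in control libraries. In CPM these were 0.785, 0.517 and 0.711 in OTX2 knockout libraries and 0.181, 0.119 and 0.131 in control libraries, without overlap. The mean rose 4.68-fold, with a counting interval of 3.02 to 7.61 (95%, covering counting error only), and the fitted log2 fold change was 2.21 (SE 0.302, adjusted p = 3.43e-05, edgeR).

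CNTN5, a contactin known from the mouse auditory pathway and retina, was barely present in control cultures and rose by a larger factor than CNTN2. It spans 1338 kb on chr11:99020953-100358885, on the plus strand. CNTN5 had 71, 60 and 66 counts in OTX2 knockout libraries, against 6, 8 and 6 counts in control libraries. Each OTX2 knockout library thus held more counts than the 3 control libraries together, which summed to 20. Mean CPM was 1.04 ± 0.0723 in OTX2 knockout cultures and 0.119 ± 0.0146 in control cultures (SD, n = 3 each), an 8.78-fold rise with a counting interval of 5.51 to 14.6 and a log2 fold change fitted at 3.11 (SE 0.259, adjusted p = 1.92e-07, edgeR).

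CNTN3, known in rodents as BIG-1, and CNTN4, a contactin of olfactory and visual axons in the mouse, were expressed in both groups at levels whose ranges overlapped. CNTN3, on chr3:74262568-74521140, minus strand, had 17.5, 17.4 and 20.4 CPM in OTX2 knockout libraries, against 21.0, 18.0 and 16.9 CPM in control libraries. Its log2 fold change was -0.01 (SE 0.0826, adjusted p = 0.911, edgeR), and the sign of this value turned under other scalings and without single libraries. CNTN4, on chr3:2098813-3057956, plus strand, had 18.4, 19.7 and 19.8 CPM in OTX2 knockout libraries, against 18.8, 16.6 and 17.1 CPM in control libraries. Only control library 1 reached into the range of the OTX2 knockout libraries. CNTN4 averaged 19.3 ± 0.808 CPM in OTX2 knockout cultures and 17.5 ± 1.13 CPM in control cultures (SD, n = 3 each), with a log2 fold change fitted at 0.14 (SE 0.0624, adjusted p = 0.0819, edgeR). It passed the threshold without control replicate 1, at 0.19 (adjusted p = 0.0178, edgeR), and with scaling by library totals, at 0.22 (adjusted p = 0.0145, edgeR), in a range of adjusted p-values of 0.0145 to 1 over the settings tried. CNTN4 counts per CNTN1 count, a ratio free of scaling and chosen after the values had been seen, were 0.416 ± 0.0101 in OTX2 knockout libraries and 0.309 ± 0.0201 in control libraries (SD, n = 3 each).

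CNTN6, known as NB-3 in the mouse, where cerebellar granule cells carry it, was at the limit of detection. It is located on chr3:1092576-1404217, on the plus strand, and had 0, 0 and 1 counts in OTX2 knockout libraries, against 1, 0 and 0 counts in control libraries. No fold change is given, since both groups were at or under the 3 counts that serve as the limit of detection.

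Dividing CPM by the length of all annotated exons of a gene, in kb, allows the levels of different genes to be ordered. CNTN1 was the highest of the 10 genes in both groups, with 6.21 ± 0.394 CPM per kb in OTX2 knockout cultures and 7.56 ± 0.122 CPM per kb in control cultures (SD, n = 3 each). L1CAM followed next in OTX2 knockout cultures at 4.53 ± 0.166 CPM per kb, whereas in control cultures it was the sixth of the 10 at 0.344 ± 0.0304 CPM per kb. NFASC, the third in control cultures at 3.27 ± 0.101 CPM per kb, was the sixth in OTX2 knockout cultures at 1.67 ± 0.0848 CPM per kb. CNTN3, CNTN4 and NRCAM came next in OTX2 knockout cultures, in this order, with 3.61, 2.12 and 1.69 CPM per kb, against 3.64, 1.92 and 0.832 CPM per kb in control cultures. CNTN5, CNTN2, CHL1 and CNTN6 were the lowest in that order in both groups, at most 0.115 CPM per kb in OTX2 knockout cultures and 0.0130 CPM per kb in control cultures. The order of neighbours was not resolved between NRCAM and NFASC in OTX2 knockout libraries, nor between CNTN3 and NFASC, CNTN2 and CHL1, or CHL1 and CNTN6 in control libraries, where the ranges overlapped. The order also rests on the length used. With the longest protein-coding transcript, NFASC held 26.3% of the sum in control cultures, above CNTN3 (14.7%) and below CNTN1 (39.8%). In OTX2 knockout cultures it then held 12.3%, above NRCAM (7.42%). Without division by length, NFASC was the highest in control cultures (40.4%, against 33.0% for CNTN1).

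**Figure D3:**
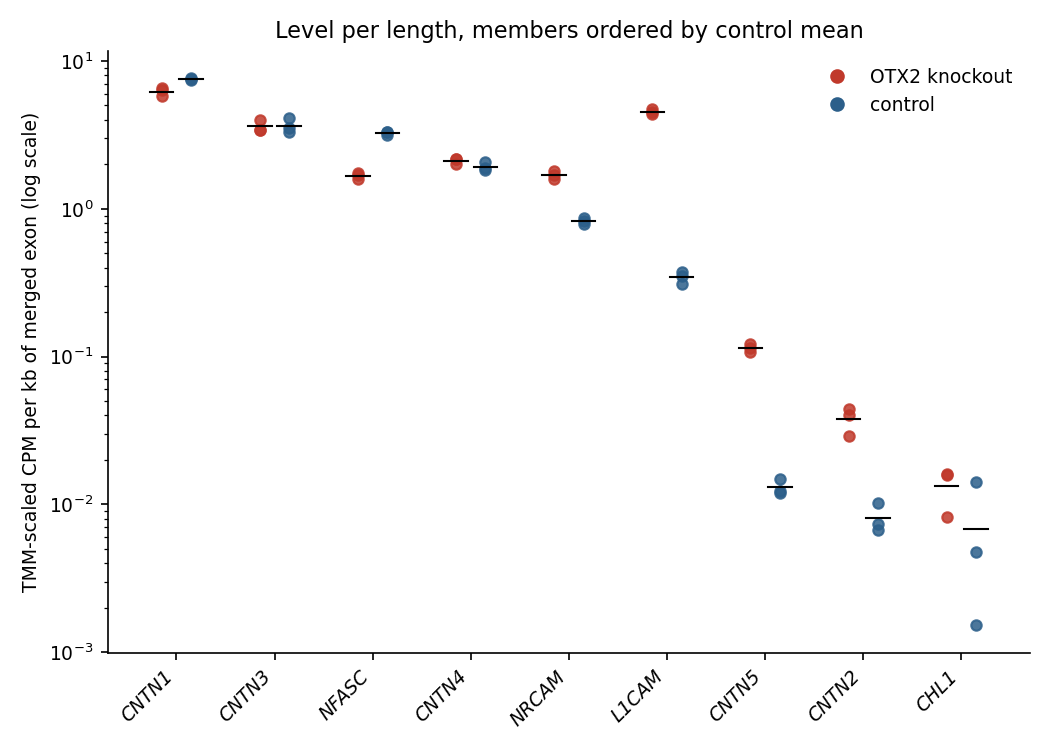
CPM per kb of annotated exon for 9 genes (CNTN6, at the limit of detection, is not drawn), with points for libraries and the mean of each group, on a log axis, OTX2 knockout left of control. L1CAM is higher and NFASC lower in OTX2 knockout libraries, while CNTN1 is the highest of the 10 in both groups.

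The summed level of the 10 genes was 19.3, 20.3 and 20.4 CPM per kb in OTX2 knockout libraries, against 18.3, 17.4 and 17.0 CPM per kb in control libraries (two-sided exact permutation p = 0.1, the smallest possible with 3 against 3). The L1 family summed to 7.92 ± 0.356 CPM per kb in OTX2 knockout cultures and 4.45 ± 0.0817 CPM per kb in control cultures, without overlap (SD, n = 3 each, exact permutation p = 0.1). The contactins summed to 12.1 ± 0.742 CPM per kb in OTX2 knockout cultures and 13.1 ± 0.598 CPM per kb in control cultures, with overlapping libraries (SD, n = 3 each, exact permutation p = 0.2). These sums rest on the length used, since NFASC has 21.3 kb and L1CAM 7.27 kb of annotated exon. Without division by length, the sums of all 10 genes, of the L1 family and of the contactins each overlapped between the groups.

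As a share of the summed level per length, the L1 family made up 41.1, 40.7 and 37.0% in OTX2 knockout libraries, against 24.8, 25.4 and 25.8% in control libraries. All OTX2 knockout libraries were above all control libraries, a difference of means of 14.3 percentage points. The size of this difference rests on the length that is used: it was 10.5 points with the longest protein-coding transcript and 3.12 points without division by length, since NFASC has 21.3 kb and L1CAM 7.27 kb of annotated exon. L1CAM accounted for 22.7 ± 1.11% of the sum in OTX2 knockout cultures and 1.96 ± 0.146% in control cultures (SD, n = 3 each). CNTN1 took 31.0 ± 1.08% in OTX2 knockout cultures and 43.0 ± 1.36% in control cultures, and NFASC took 8.38 ± 0.558% in OTX2 knockout cultures and 18.6 ± 0.416% in control cultures (SD, n = 3 each). The shares of CNTN3 and CNTN4 overlapped between the groups. Of 12 shares compared, those of L1CAM, NRCAM, NFASC, CNTN1, CNTN2, CNTN5, the L1 family and the contactins had the smallest exact permutation p of 0.1 (0.15 after Benjamini-Hochberg adjustment over the 12), and shares of one sum are not independent of each other.

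**Figure D4:**
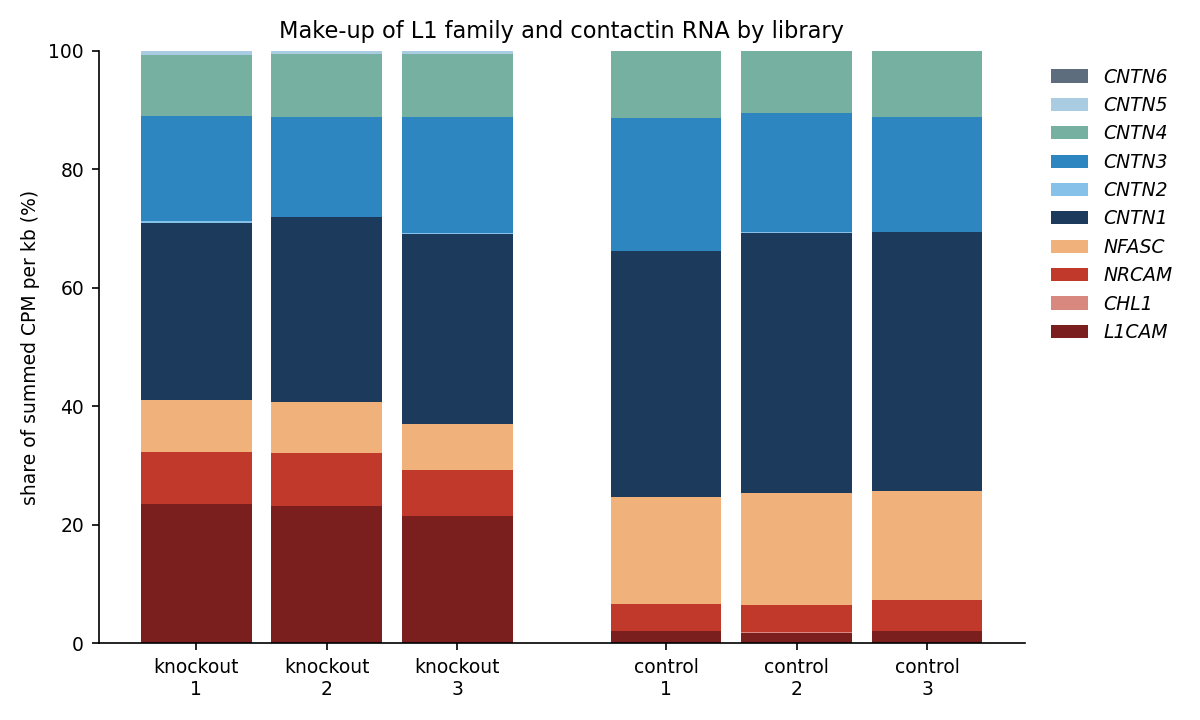
Share of each gene in the summed CPM per kb of the 10 genes, in percent, for the 3 OTX2 knockout and the 3 control libraries. L1CAM takes up 22.7% on average in OTX2 knockout libraries and 1.96% in control libraries, while the parts of NFASC and CNTN1 are smaller in OTX2 knockout libraries.

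Several of the genes are neighbours in the genome. NFASC and CNTN2 lie on the same strand of chromosome 1 with a gap of 20.1 kb and 0 annotated genes wholly between them, and in OTX2 knockout cultures NFASC was lower and CNTN2 was higher. CNTN2 counts per NFASC count were 0.0189 ± 0.00434 in OTX2 knockout libraries and 0.00206 ± 0.000442 in control libraries (SD, n = 3 each). CHL1, CNTN6 and CNTN4 follow each other on chromosome 3 with gaps of 683 and 695 kb and 0 protein-coding genes between them. CHL1 and CNTN6 were near or at the detection limit in both groups, while CNTN4 was expressed at 16.6 CPM or more in every library.

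Genes whose pattern over the 6 libraries was close to that of L1CAM, by Pearson r of log2(CPM + 0.5), included GSTA4 (r = 0.99987) and BSDC1 (r = 0.99961). The log2 fold changes of GSTA4 and BSDC1 were 0.42 and 0.27. Since r ignores the size of a change and the libraries form 2 groups, 525 tested genes had an r over 0.99 with L1CAM. For NFASC the closest were TEAD4 (r = 0.99923), LRP10 (r = 0.99847) and FAM114A2 (r = 0.99833), with log2 fold changes of -0.48, -0.48 and -0.47, and 82 genes had an r over 0.99.

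Partners of these adhesion molecules were read from 6 lists with 67 genes, of which 58 were tested. Of these, 27 (46.6%) were higher and 10 (17.2%) lower in OTX2 knockout cultures, against 21.2% and 18.5% of all tested genes, and their median log2 fold change was 0.18, against 0.01 for all tested genes. The 27 include NEGR1 and TNR, which are among 3 genes that passed the low-count filter through the OTX2 knockout libraries alone, so these shares are not read as support for a direction. Among the 55 genes that passed through both groups, 25 were higher and 10 were lower. The share over all genes that passed through both groups was not computed, so these counts have no matching background. The counts of single lists below stand beside the same 21.2% and 18.5% of all tested genes, and they are not read as support for a direction either.

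**Figure D5:**
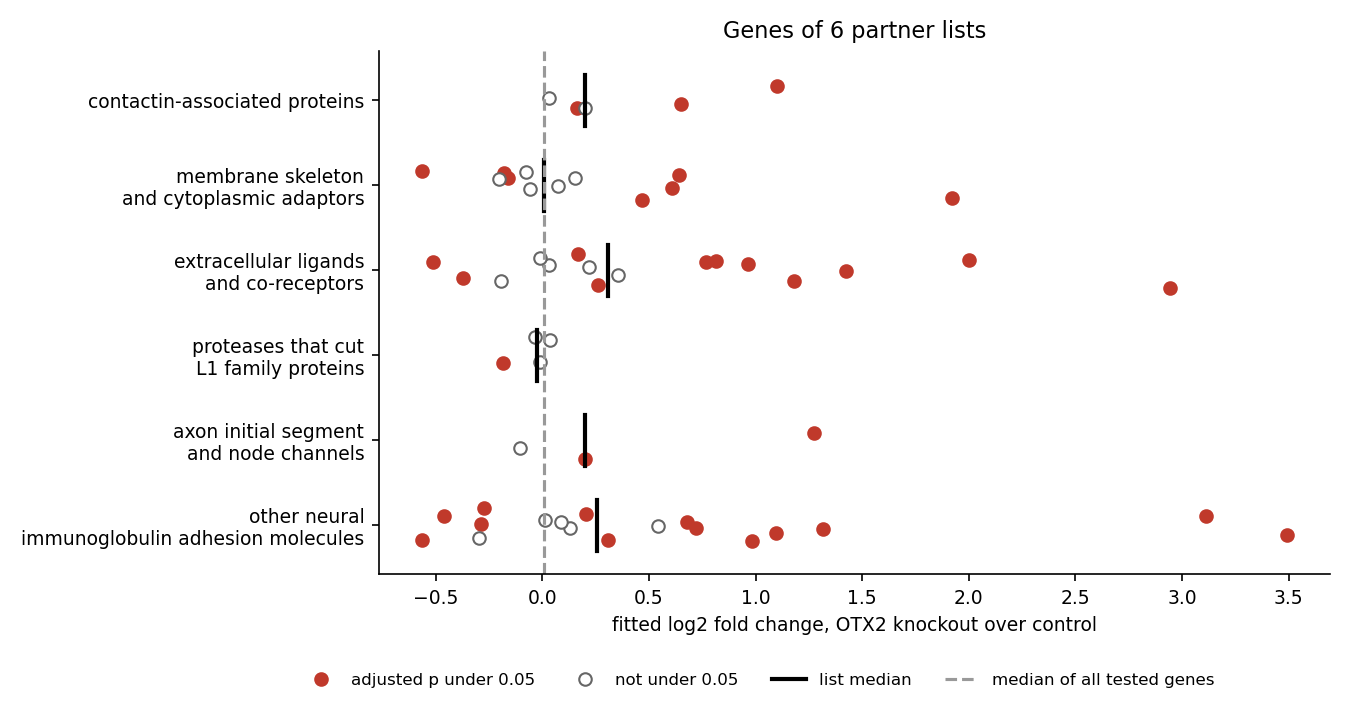
Fitted log2 fold change of OTX2 knockout over control for each tested gene of the 6 partner lists, with 1 point per gene, filled where adjusted p was under 0.05, a bar at each list's median and a dashed line at the median of all tested genes. Points of the ligand and co-receptor list and of the other neural immunoglobulin genes reach highest (TNC at 2.95, NCAM2 at 3.49), and those of the proteases lie near 0.

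Contactin-associated proteins bind contactins side by side in the axon membrane. Of 6 genes in the list, 5 were tested, 3 were higher and 0 were lower, with a median log2 fold change of 0.20. CNTNAP2, the partner of CNTN2 beside the node, averaged 16.8 ± 1.14 CPM in OTX2 knockout cultures and 7.84 ± 0.244 CPM in control cultures (SD, n = 3 each), with a log2 fold change of 1.10 (adjusted p = 1.10e-08, edgeR). CNTNAP5 rose by 0.65 on the log2 scale (adjusted p = 1.03e-05, edgeR). CNTNAP1, the partner of CNTN1 at the paranode, averaged 36.8 ± 0.740 CPM in OTX2 knockout cultures and 32.9 ± 0.952 CPM in control cultures (SD, n = 3 each). Its log2 fold change of 0.16 (adjusted p = 0.0136, edgeR) no longer passed without knockout replicate 1 or 2 or control replicate 2 (adjusted p of 0.0535 to 0.0769). CNTNAP3, which shares near-identical sequence with CNTNAP3B and is uncertain for that reason, had a log2 fold change of 0.20 (adjusted p = 0.113, edgeR), which passed without control replicate 1 (adjusted p = 0.0267) and with library totals (adjusted p = 0.0399).

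Inside the cell, L1 family proteins bind ankyrins, which connect to spectrin, and they bind other adaptors such as doublecortin. Of 13 genes in this list, 12 were tested, 4 were higher and 3 were lower, with a median log2 fold change of 0.01. DCX, doublecortin, a microtubule protein of migrating young neurons that binds neurofascin, averaged 29.9 ± 2.72 CPM in OTX2 knockout cultures and 7.89 ± 1.16 CPM in control cultures (SD, n = 3 each), a log2 fold change of 1.92 (adjusted p = 5.02e-10, edgeR). SPTAN1 and SPTBN1, widespread alpha and beta chains of spectrin, rose by 0.61 and 0.64 on the log2 scale (adjusted p = 4.49e-08 and 3.82e-08, edgeR). SPTAN1 shares 2 exon bases with WDR34 on the opposite strand, whose count was 47.45% of that of SPTAN1, so by the rule used here the counts of SPTAN1 are uncertain.

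Among extracellular ligands and co-receptors all 16 genes were tested, 9 were higher and 2 were lower, with a median log2 fold change of 0.31. Of all tested genes, 21.2% were higher and 18.5% were lower. The 9 include TNR, which passed the low-count filter through the OTX2 knockout libraries alone. TNC, tenascin-C, a matrix protein bound by CNTN1, averaged 3.00 ± 0.370 CPM in OTX2 knockout cultures and 0.389 ± 0.0593 CPM in control cultures (SD, n = 3 each), with a log2 fold change of 2.95 (adjusted p = 5.68e-09, edgeR). PTPRG, a receptor phosphatase that binds contactins 3 to 6, averaged 10.5 ± 0.468 CPM in OTX2 knockout cultures and 3.93 ± 0.637 CPM in control cultures (SD, n = 3 each), with a log2 fold change of 1.42 (adjusted p = 3.20e-08, edgeR). NRP1, which forms a semaphorin receptor with L1CAM, and FGFR1, a receptor kinase that L1CAM can engage, rose by 1.18 and 0.77 on the log2 scale (adjusted p = 1.55e-07 and 1.83e-06, edgeR).

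Proteases cut L1 family proteins off the cell surface. Of 4 genes tested, 0 were higher and 1 was lower, with a median log2 fold change of -0.02. ADAM17 averaged 83.5 ± 1.59 CPM in OTX2 knockout cultures and 94.9 ± 0.921 CPM in control cultures (SD, n = 3 each), with a log2 fold change of -0.18 (adjusted p = 0.00354, edgeR), a call that was lost with scaling by library totals (adjusted p = 0.0594, edgeR). ADAM10, the main L1CAM sheddase, averaged 124 ± 0.682 CPM in OTX2 knockout cultures and 127 ± 7.15 CPM in control cultures (SD, n = 3 each). BACE1 averaged 27.1 ± 0.454 CPM in OTX2 knockout cultures and 27.3 ± 0.557 CPM in control cultures (SD, n = 3 each). For ADAM10 and BACE1 the adjusted p-values were 0.627 and 0.865 (edgeR). ADAM17 and BACE1 share exon bases with IAH1 and RNF214 on the opposite strand, so their counts are uncertain.

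Of 7 channel genes of the axon initial segment and node, 3 were tested, 2 were higher and 0 were lower. SCN2A, a sodium channel of young axons, averaged 1.17 ± 0.153 CPM in OTX2 knockout cultures and 0.483 ± 0.0820 CPM in control cultures (SD, n = 3 each), with a log2 fold change of 1.27 (adjusted p = 0.000139, edgeR). KCNQ3, a potassium channel subunit with an ankyrin-binding motif, had a log2 fold change of 0.20 (adjusted p = 0.0196, edgeR), which was lost without knockout replicate 2 or 3 or control replicate 2 or 3 (adjusted p of 0.0592 to 0.0852, edgeR). SCN8A, the sodium channel of mature nodes, averaged 24.6 ± 1.16 CPM in OTX2 knockout cultures and 26.5 ± 1.58 CPM in control cultures (SD, n = 3 each) and did not pass (adjusted p = 0.165, edgeR).

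Of 21 other neural adhesion genes of the immunoglobulin superfamily, 18 were tested, 9 were higher and 4 were lower, with a median log2 fold change of 0.26. Shares over all tested genes were 21.2% higher and 18.5% lower. The 9 include NEGR1, which passed the low-count filter through the OTX2 knockout libraries alone. NCAM2 had a rise of a size like that of L1CAM, with 8.46 ± 0.295 CPM in OTX2 knockout cultures and 0.751 ± 0.0110 CPM in control cultures (SD, n = 3 each), an 11.3-fold difference with a log2 fold change of 3.49 (adjusted p = 6.81e-12, edgeR). NCAM1, the neural cell adhesion molecule that can act beside L1CAM, averaged 101 ± 4.11 CPM in OTX2 knockout cultures and 51.2 ± 6.13 CPM in control cultures (SD, n = 3 each), with a log2 fold change of 0.98 (adjusted p = 3.40e-08, edgeR). KIRREL2 and MCAM rose by 1.10 and 0.68 on the log2 scale (adjusted p = 4.08e-07 and 5.29e-08, edgeR), and MCAM shares exon bases with CBL, so its counts are uncertain.

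Markers of the line and of other cell types were read beside these results, and their part in them was not tested. The 5 genes of the medulloblastoma line (OTX2, MYC, CRX, NEUROD1 and SYP) were all expressed, and summed to 2248 to 2691 CPM in OTX2 knockout libraries, against 2819 to 3151 CPM in control libraries, with 2 higher and 3 lower. Of the markers of oligodendrocytes and Schwann cells, which carry the glial form of neurofascin, MBP, MOG and MAG each had 1 count over the OTX2 knockout libraries and 0 over the control libraries. The 5 astrocyte markers summed to 266 to 310 CPM in OTX2 knockout libraries, against 145 to 171 CPM in control libraries, with 1 of 2 tested genes higher. Nearly all of that sum was GJA1, with a mean of 279 CPM in OTX2 knockout cultures and 154 CPM in control cultures, while SLC1A2 averaged 2.90 CPM in OTX2 knockout cultures and 3.03 CPM in control cultures, with GFAP at 6 counts over the OTX2 knockout libraries and 1 over the control libraries. The 6 fibroblast markers, whose cell type can also carry L1CAM and TNC, summed to 18.7 to 19.8 CPM in OTX2 knockout libraries, against 8.81 to 9.51 CPM in control libraries, with 3 of 4 tested genes higher. The 3 endothelial markers summed to 5.06 to 5.90 CPM in OTX2 knockout libraries, against 2.22 to 3.32 CPM in control libraries, with 2 of 2 tested genes higher. DCN of the fibroblast list and PECAM1 of the endothelial list passed the low-count filter of 0.164 CPM through the OTX2 knockout libraries alone. Of all tested genes, 21.2% were higher and 18.5% were lower, and the marker counts are not read as support for a direction. The 3 immune markers summed to at most 0.291 CPM in OTX2 knockout libraries and 0.338 CPM in control libraries, and CD3E was at 0 in all libraries.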

How the data were processed

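Total RNA of 6 D283 cultures was sequenced, 3 with an OTX2-directed guide and 3 with a non-targeting guide, grouped by the genotype in the labels. The authors deposited unnormalized counts per gene symbol with 1 column per library, matched to libraries by title. STAR and hg38 are named per the submitters' processing notes, while the counting program, annotation and strand setting are not named there. Reads of overlapping genes can therefore be split or shared, and a gene is called uncertain where another gene on its exons held over 10% of its count. The members and lists were chosen with earlier results of these data known.

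Counts were fitted with edgeR 4.0.16 in R 4.3.3: filterByExpr at its defaults, scaling by the trimmed mean of M values, and the quasi-likelihood F test of OTX2 knockout against control over 18420 genes, with Benjamini-Hochberg adjustment over all of them and a threshold of 0.05. A fold change is the ratio of the group means in CPM, a log2 fold change is the fitted coefficient, and the SE is the size of the log2 fold change divided by the square root of F. No pair of libraries of 1 group agreed within sampling noise, with a chi-square per gene of 4.31 to 20.4. Lengths are the merged exons of GENCODE release 29. Single values were compared with two-sided exact permutation tests over libraries. Intervals reflect counting error alone, since PCR copies of 1 molecule cannot be told apart in such counts. From each partner list, up to 4 tested genes with the smallest adjusted p are named, and the 3 genes most like the highest and the lowest member, and a few genes these rules name are not reported here. The fit was tested on simulated data. The alternatives were other size factors, filters, thresholds and tools (DESeq2 1.42.0, limma 3.58.1), other lengths, and each library left out.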

Additional observations from a re-analysis of the deposited data

How the results depend on the processing

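Of 100 alternative results for the 6 genes that changed, 99 kept direction and call. The 100 include a threshold of 0.01 applied to the main fit. They leave out the filter of at least 1 CPM in 3 libraries for CNTN2 and CNTN5, which were not tested under it. The exception among the 100 was CNTN1, lost against a minimum change of 1.5-fold. That test left 1050 genes higher and 157 lower among all tested genes, 1 lower gene of the family (NFASC), and 13 higher and 0 lower partner genes. Library totals gave 2034 lower genes. Leaving out single libraries gave 3267 to 3861 higher and 2630 to 3653 lower genes, and 4 to 5 higher genes of the family. A filter of at least 1 CPM in 3 libraries removed CNTN2 and CNTN5, which left 2 higher genes. The L1 family share difference fell to 3.12 points without length division and was 10.5 points with the longest coding transcript, a setting chosen after seeing the data, as was a fit of protein-coding genes alone.

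Some values near 0 changed sign. CNTN3 had log2 fold changes of 0.0022 with upper-quartile factors and 0.0631 with library totals, and from -0.1011 to 0.0784 without single libraries. With library totals ADAM10 had 0.0445 and BACE1 0.0657, and BACE1 had 0.0040 with upper-quartile factors and 0.0018 under the stricter filter. Without single libraries ADAM10 ran from -0.0702 to 0.0087 and BACE1 from -0.0251 to 0.0008. The causes were not tested.

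No paired analysis was possible because the labels number the libraries 1 to 6 across both groups and give no shared number. Depth limits CHL1, CNTN2, CNTN5 and CNTN6, which had at most 71 counts in a library.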
